A study of Mus musculus with 8 samples.

Results

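The mitochondrial carrier genes examined here were the rows of the expression table whose symbol reads Slc25a followed by a number. Slc25a20 was left out by that rule. It chose 46 of 47643 rows by name alone, and no measured value entered it. Each of 8 libraries came from the quadriceps RNA of 1 mouse, labelled as strain C57BL/6 and backcrossed to C57BL/6J per the study's methods, of which 4 carried the genotype label Nup210-/- and 4 the label Nup210+/+, and the study asked how loss of the nucleoporin alters muscle transcripts. The Nup210-/- line is a constitutive knockout in which exon 2 was removed by Hprt-Cre recombination, so every cell type of the muscle carries the deletion. The age and sex of these mice and any treatment are not given in the sources used here. Values are TPM, transcript abundances corrected for transcript length and brought to a sum of 1000000 in each library. Read depth is not known from them, and precision rests on the spread between mice.

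Mitochondrial carriers are small proteins of the SLC25 family that sit, with few exceptions, in the inner mitochondrial membrane. Each binds a substrate on one side, changes shape, and releases it on the other, often in exchange for a second substrate. In skeletal muscle the best known are the ADP/ATP carrier and the phosphate carrier, which feed the ATP synthase and export its product, and the aspartate/glutamate and oxoglutarate carriers of the malate-aspartate shuttle, which moves reducing equivalents from glycolysis into mitochondria.

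The library labels were examined first. Nup210 stood at 9.54, 10.79, 11.93 and 8.81 TPM in the 4 libraries labelled Nup210-/- and at 5.71, 10.11, 9.19 and 6.71 TPM in the 4 labelled Nup210+/+. The gene was therefore not lower where the label says it was deleted (log2 fold change 0.44, adjusted p = 0.231 in limma with Benjamini-Hochberg adjustment). A value per gene does not isolate exon 2, so it does not check the deletion, and genotypes are given below as labelled. The tissue carried its defining markers in all 8 libraries. The 8 skeletal muscle fiber genes summed to 86651 to 93509 TPM in the libraries labelled Nup210-/-. In those labelled Nup210+/+ they summed to 80260 to 85666 TPM, so the sums did not overlap. The part of this difference in the values of the carriers was not tested. The library labelled Nup210+/+ replicate 2 stood apart. Its 6 granulocyte precursor markers summed to 381.7 TPM, where no other library exceeded 2.1 TPM, and its 9 markers of dividing cells summed to 122.9 TPM, against 24.6 to 29.9 TPM. Leukocyte markers summed to 235.6 to 260.5 TPM in the libraries labelled Nup210-/- and to 269.9 to 523.7 TPM in those labelled Nup210+/+. Slow fiber markers summed to 1007 to 1848 TPM and 1212 to 1951 TPM, and fibroblast markers to 607.5 to 729.8 TPM and 773.0 to 1183 TPM, in the same order.

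The carriers ranged over more than 3 orders of magnitude. Slc25a4, the ADP/ATP carrier of heart and muscle, averaged 1975 TPM over the 8 libraries and alone made up 53.4 to 56.7% of the summed carrier TPM. With Slc25a3, the phosphate carrier, Slc25a12, an aspartate/glutamate carrier, and Slc25a11, the oxoglutarate carrier, it made up 83.8 to 87.7%. A further 14 members lay between 10 and 100 TPM, 20 between 1 and 10 TPM, and 8 below 0.5 TPM. The summed TPM of all 46 members, as deposited, was 3571 ± 108 (SD, n = 4) in the libraries labelled Nup210-/- and 3583 ± 105 (SD, n = 4) in those labelled Nup210+/+. On these deposited values the difference was smaller than the spread within either group. The sum was not compared after the scaling used for the tests below. The 38 members with a mean of at least 0.5 TPM entered the test.

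**Figure D1:**
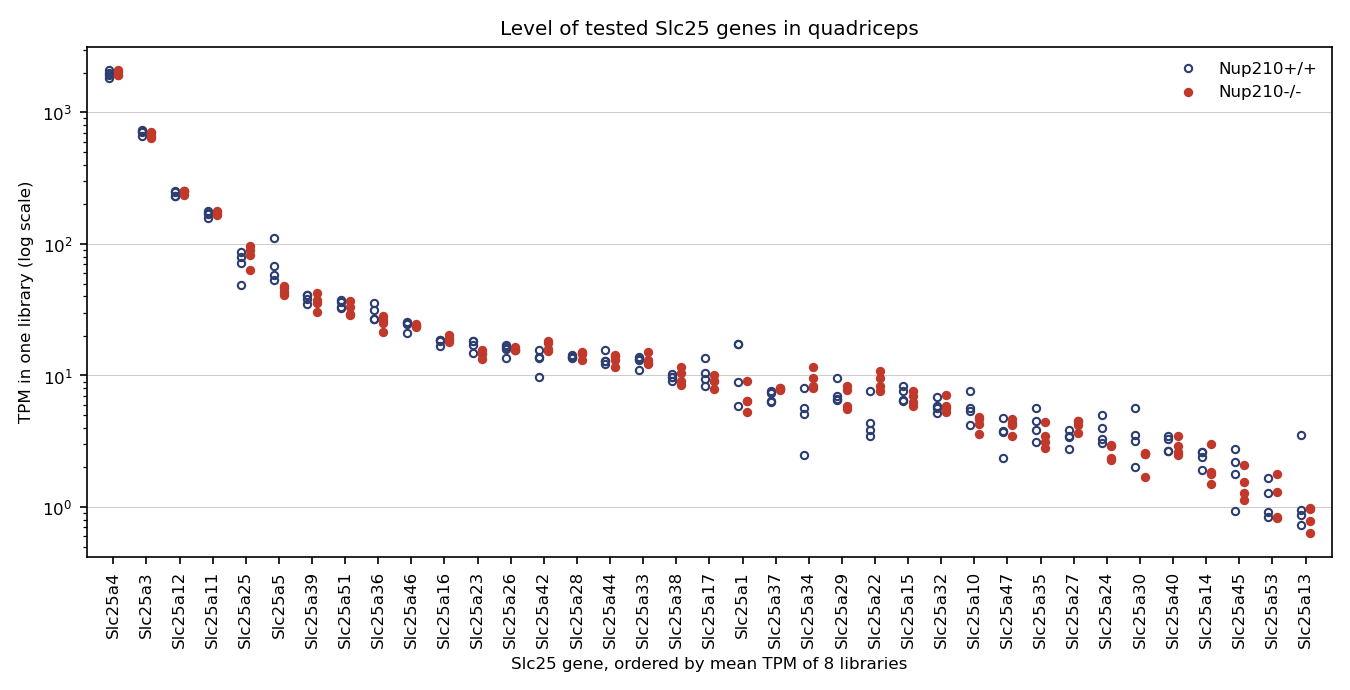
TPM of 37 tested Slc25 genes on a log axis, 1 point per library, with open blue points for Nup210+/+ and filled red points for Nup210-/- (4 libraries each), ordered by the mean of 8 libraries. Slc25a4 lies at 1833 to 2091 TPM, far above the rest, and most pairs of point clouds overlap.

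To compare genotypes, TPM were scaled in each library by a size factor and tested on the log2(scaled TPM + 1) scale with limma over 14229 genes, with Benjamini-Hochberg adjustment. Fold changes below are on that scale, which understates the change of low genes. At an adjusted p of 0.05, 0 of 38 tested members were called, against 0.112% of all genes (16 of 14229). At an unadjusted p of 0.05, 7 members were higher in the libraries labelled Nup210-/- (7.0% of all genes) and 2 were lower (7.18% of all genes). Thus the share of members higher was above the background and the share lower was near it, and members are not independent of each other. Without overlap of the 4 against 4 libraries on scaled TPM were 6 higher members, against 4.78% of all genes, and 2 lower members, against 4.6%. For those 8 genes, as for any gene without overlap, the two-sided exact permutation test gave 0.0286, the smallest p that 4 against 4 allows. On TPM as deposited, 4 members were without overlap, 2 higher (1.54% of all genes) and 2 lower (6.87% of all genes). Leaving out the library labelled Nup210+/+ replicate 4 raised the members past an unadjusted p of 0.05 to 14, against 18.8% of all genes, and those without overlap, now of 4 against 3 libraries, to 14, against 18.3% of all genes. Of the 38 members 23 had a positive and 15 a negative fold change, with a median log2 fold change of 0.044 after scaling and of -0.034 on TPM as deposited, where all genes had medians of -0.006 and -0.085.

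**Figure D2:**
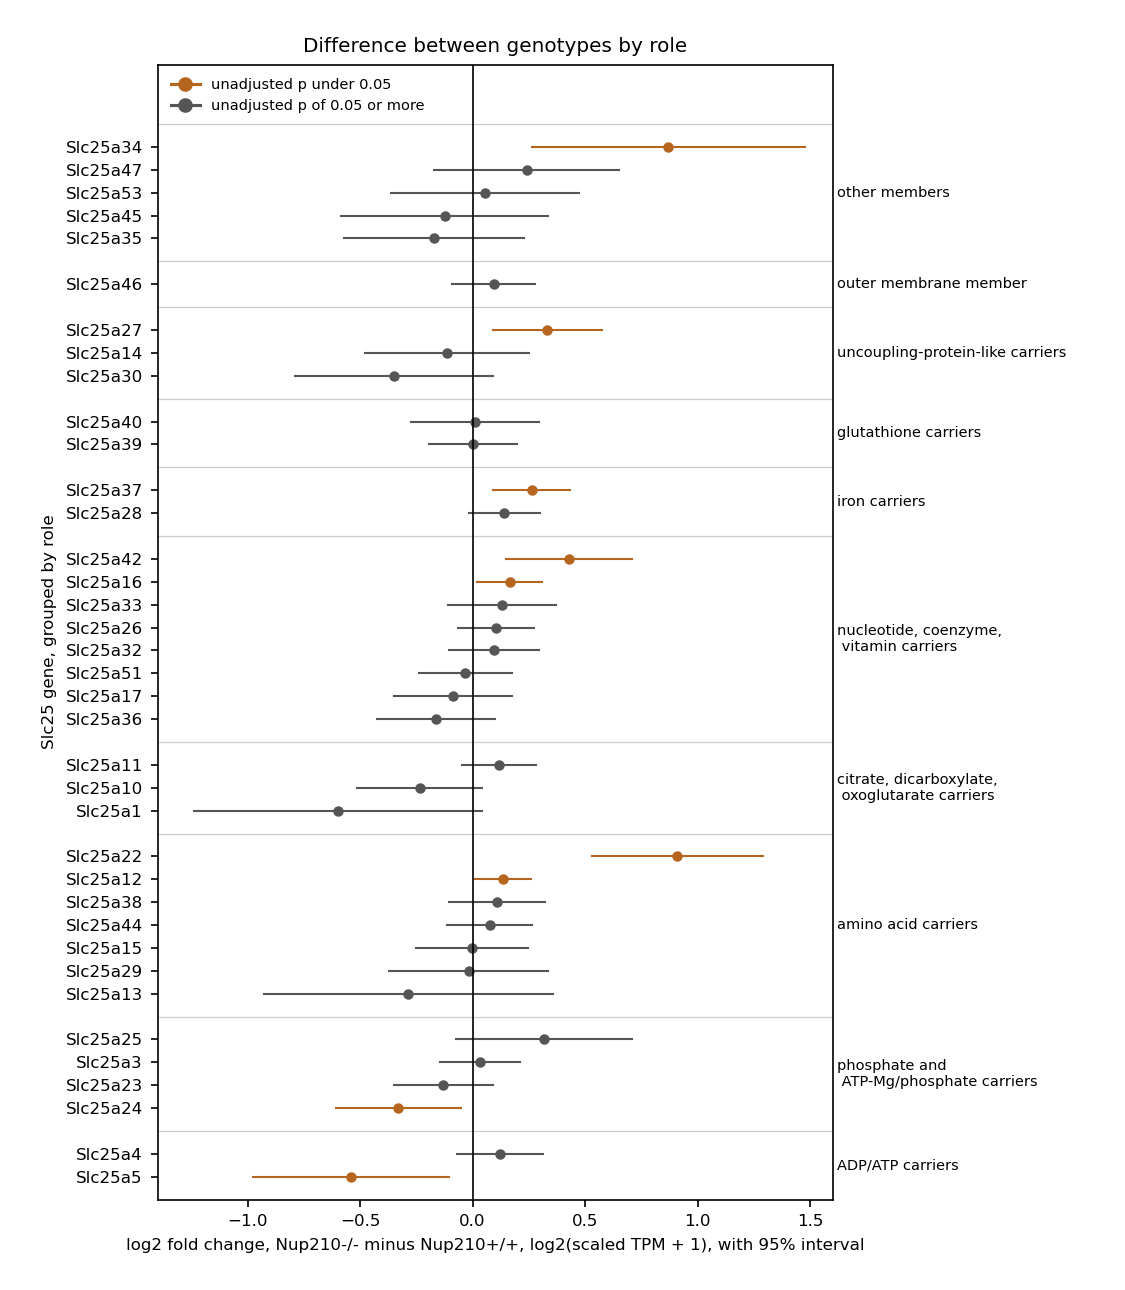
Log2 fold change of 37 tested Slc25 genes, Nup210-/- minus Nup210+/+, with its 95% interval from limma, grouped by role (n = 4 libraries per genotype). The 7 intervals above 0 and the 2 below 0 are in orange, with Slc25a22 at 0.91 and Slc25a5 at -0.54 at the ends of those sets.

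The ADP/ATP carriers exchange cytosolic ADP for ATP made in the matrix, and 2 of 3 were expressed. Slc25a4 (ENSMUSG00000031633, chr8:46206797-46211284, GRCm38, minus strand) measured 1934.62, 2015.72, 1933.63 and 2091.04 TPM in the libraries labelled Nup210-/-. In those labelled Nup210+/+ it measured 1936.80, 1833.05, 1975.82 and 2080.57 TPM. On these deposited values the groups overlapped. Scaled TPM ran from 1926 to 2234 and from 1759 to 2180. There Nup210+/+ replicates 1, 2 and 3 lay below the other group, and replicate 4, at 2180, lay within its range. The log2 fold change was 0.12 (95% interval -0.07 to 0.32, adjusted p = 0.535). Slc25a5 (ENSMUSG00000016319, chrX:36795651-36798807, plus strand), the isoform of many other tissues and of dividing cells, measured 43.00, 47.61, 41.00 and 46.06 TPM in the libraries labelled Nup210-/-. In those labelled Nup210+/+ it measured 57.58, 110.82, 67.70 and 53.54 TPM. All 4 values of the first group lay below all 4 of the second, and Nup210+/+ replicate 2 was far above its own group. The log2 fold change was -0.54 (SE 0.19, unadjusted p = 0.020, adjusted p = 0.259), and -0.32 without that library (adjusted p = 0.159). Slc25a5 made up 2.17, 2.31, 2.08 and 2.16% of the summed TPM of the pair in the libraries labelled Nup210-/-, and 2.89, 5.70, 3.31 and 2.51% in those labelled Nup210+/+. Beside this, 8 of 10 leukocyte and 4 of 6 fibroblast markers were lower at an unadjusted p of 0.05 (7.18% of all genes). Of the leukocyte markers, 1 (Cd52, log2 fold change -0.81, adjusted p = 0.049) passed the adjusted threshold. The part of either cell type in the values of Slc25a5 was not tested. In bulk tissue, fewer cells of a type and less RNA per cell cannot be told apart. Of the 75-base windows of Slc25a5 transcripts, 19.8% also occur in other annotated genes, among them its pseudogene Slc25a5-ps, so read assignment there was uncertain. Slc25a31, the ADP/ATP carrier of the testis, was listed at 0 in 7 libraries and at 0.05 TPM in the other.

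**Figure D3:**
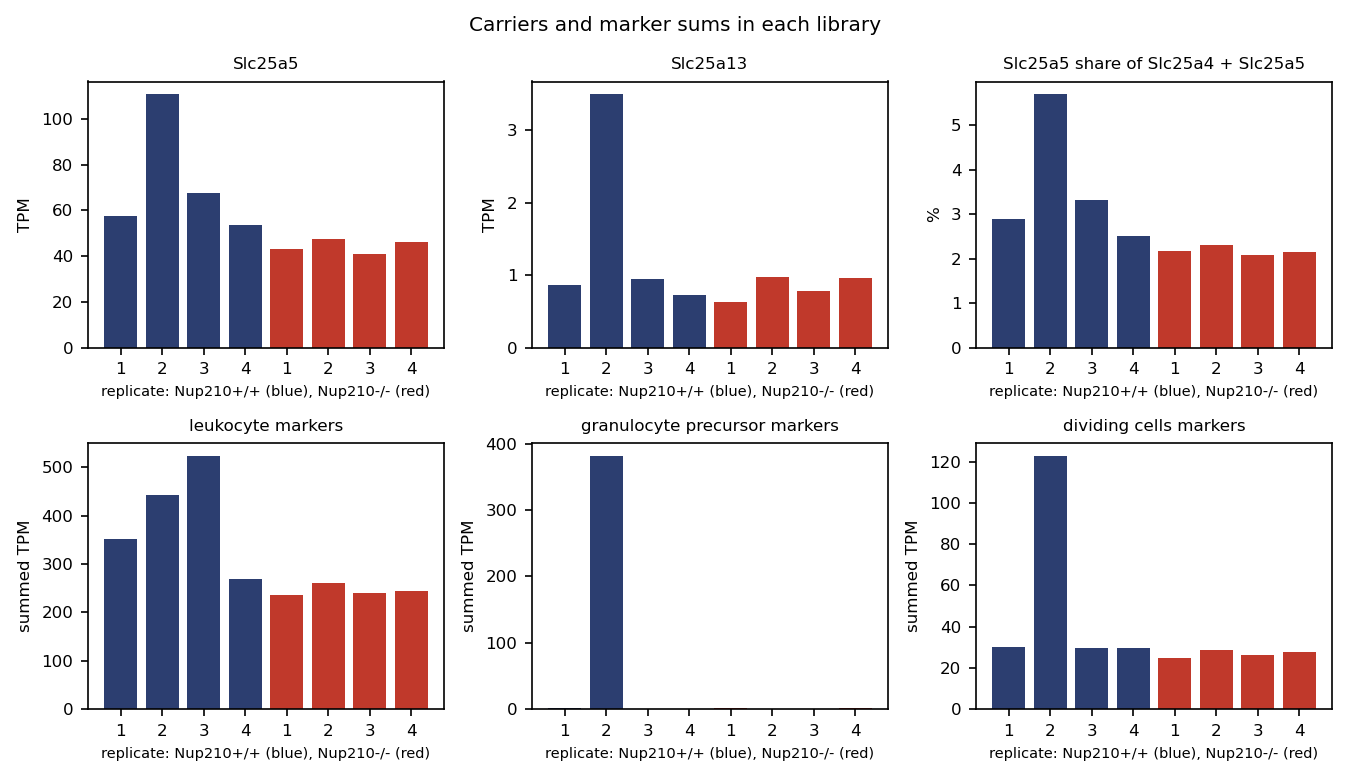
Bars from 0 for each library, blue for Nup210+/+ and red for Nup210-/- with replicate numbers under them, of Slc25a5 and Slc25a13 TPM, the percent of Slc25a5 in the summed TPM of Slc25a4 and Slc25a5, and the summed TPM of leukocyte, granulocyte precursor and dividing cell markers. Nup210+/+ replicate 2 is highest in 5 of the 6 panels, and for leukocyte markers Nup210+/+ replicate 3 is, at 523.7 TPM.

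The phosphate carrier and the ATP-Mg/phosphate carriers bring phosphate and adenine nucleotides into the matrix. Slc25a3 (ENSMUSG00000061904, chr10:91116574-91124059, minus strand) measured 632.66, 702.67, 657.98 and 700.70 TPM in the libraries labelled Nup210-/- and 718.82, 655.48, 707.50 and 729.19 TPM in those labelled Nup210+/+. The groups overlapped, and the log2 fold change of 0.033 (95% interval -0.14 to 0.21) turned to -0.061 on TPM as deposited. Slc25a25, an ATP-Mg/phosphate carrier, measured 82.71, 63.48, 95.93 and 89.54 TPM against 86.18, 79.75, 71.36 and 48.81 TPM. Replicate 4 of the second group was the lowest of all 8 libraries, and the groups overlapped (log2 fold change 0.32, 95% interval -0.07 to 0.71, and 0.19 without that library). Slc25a24, of the same kind, measured 2.90, 2.97, 2.34 and 2.29 TPM against 3.32, 3.97, 5.0 and 3.05 TPM. All 4 libraries labelled Nup210-/- were lower (log2 fold change -0.33, SE 0.12, unadjusted p = 0.025, adjusted p = 0.275), and the unadjusted p stayed under 0.05 in 4 of 8 fits that left out 1 library. Slc25a23 averaged 15.8 TPM, with a log2 fold change of -0.13 (95% interval -0.35 to 0.09). Slc25a41 averaged 0.030 TPM, and Slc25a54 was listed at 0 in all 8 libraries.

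Amino acid carriers held the member with the lowest p. Slc25a22 (ENSMUSG00000019082, chr7:141429744-141437892, minus strand), a carrier that brings glutamate and a proton into mitochondria, measured 7.58, 10.83, 9.56 and 8.33 TPM in the libraries labelled Nup210-/-. In those labelled Nup210+/+ it measured 4.37, 3.88, 7.59 and 3.49 TPM. On deposited values only 7.58 and 7.59 touched, and on scaled TPM the ranges of 8.01 to 11.0 and 3.66 to 6.76 did not overlap. Mean TPM was 9.08 ± 1.43 and 4.83 ± 1.87 (SD, n = 4 each), a ratio of 1.88, and the log2 fold change was 0.91 (SE 0.17, 95% interval 0.53 to 1.29, adjusted p = 0.083). The fold change lay between 0.83 and 1.08 in the 8 fits that left out 1 library, and its adjusted p between 0.036 and 0.232 over all alternatives. Its nearest relative Slc25a18, also a glutamate carrier, averaged 0.078 TPM.

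The aspartate/glutamate carriers export aspartate from the matrix in exchange for glutamate. Slc25a12 (ENSMUSG00000027010, chr2:71271063-71367749, minus strand), the form of muscle and brain, measured 237.04, 250.69, 251.08 and 254.18 TPM in the libraries labelled Nup210-/- and 249.05, 230.42, 253.49 and 232.47 TPM in those labelled Nup210+/+. These values overlapped, whereas on scaled TPM they ran from 250.04 to 271.6 against 222.3 to 243.6. The log2 fold change was 0.14 (SE 0.06, unadjusted p = 0.038, adjusted p = 0.317), the unadjusted p stayed under 0.05 in 3 of 8 fits that left out 1 library, and the coefficient of variation of its TPM over all 8 libraries, 4.01%, was the lowest of the 38. Slc25a13, the form prominent in liver, measured 3.5 TPM in Nup210+/+ replicate 2, against at most 0.98 TPM elsewhere, so that its log2 fold change of -0.28 became 0.032 without that library. Markers of granulocyte precursors and dividing cells were high in the same library, and their part in the values of Slc25a13 was not tested. The remaining amino acid carriers overlapped between genotypes. Slc25a38, a glycine carrier needed for heme synthesis, averaged 9.80 TPM, Slc25a44, a branched-chain amino acid carrier, 13.3 TPM, and Slc25a29, a carrier of basic amino acids, 7.12 TPM. The ornithine carriers Slc25a15 and Slc25a2 averaged 6.95 and 0.202 TPM. Fold changes of these tested members, on the log2 scale, were 0.11 for Slc25a38, 0.08 for Slc25a44, -0.018 for Slc25a29 and -0.003 for Slc25a15.

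The carriers of citrate, dicarboxylates and oxoglutarate link the citric acid cycle to the cytosol. Slc25a11 (ENSMUSG00000014606, chr11:70644196-70647479, minus strand), the partner of the aspartate/glutamate carrier in the malate-aspartate shuttle, measured 166.09, 176.41, 175.09 and 167.99 TPM in the libraries labelled Nup210-/- and 170.51, 156.29, 170.19 and 178.10 TPM in those labelled Nup210+/+. The groups overlapped on these values. Scaled TPM ran from 174.4 to 179.5 and from 150.8 to 186.6. There Nup210+/+ replicates 1, 2 and 3 lay below the other group, and replicate 4, at 186.6, lay above it (log2 fold change 0.12, 95% interval -0.05 to 0.28). Slc25a1, the citrate carrier that supplies acetyl units for fatty acid synthesis, had the lowest fold change of the family. It measured 5.30, 6.44, 9.15 and 6.35 TPM against 8.96, 17.38, 17.50 and 5.88 TPM. Replicates 2 and 3 labelled Nup210+/+ were about alike and high, and the other 2 of that group lay within the range of the libraries labelled Nup210-/- (log2 fold change -0.60, 95% interval -1.24 to 0.04, adjusted p = 0.378). Markers of adipocytes, a cell type that makes fatty acids, summed to 521.6 to 826.3 TPM in the libraries labelled Nup210-/- and to 735.1, 615.8, 1360.7 and 579.5 TPM in those labelled Nup210+/+, and their part in the values of Slc25a1 was not tested. Slc25a10, the dicarboxylate carrier, averaged 5.04 TPM (log2 fold change -0.24, 95% interval -0.51 to 0.04), and Slc25a21, the oxodicarboxylate carrier, 0.084 TPM.

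Carriers of nucleotides, coenzymes and vitamins were all expressed, and 6 of 9 had a positive fold change. Slc25a42 (ENSMUSG00000002346, chr8:70184340-70212305, minus strand), a coenzyme A carrier, measured 15.32, 17.57, 18.39 and 15.90 TPM in the libraries labelled Nup210-/- and 13.85, 9.70, 15.56 and 13.68 TPM in those labelled Nup210+/+. On scaled TPM the ranges of 16.2 to 18.3 and 9.36 to 14.3 did not overlap, and Nup210+/+ replicate 2 was the lowest of all. The log2 fold change was 0.43 (SE 0.12, unadjusted p = 0.0069, adjusted p = 0.192), and 0.30 without that library. Slc25a16, also linked to matrix coenzyme A, measured 18, 20.44, 18.67 and 19.38 TPM against 18.66, 18.39, 18.65 and 16.65 TPM. Scaled TPM ran from 18.6 to 20.7 and from 16.6 to 18.2 (log2 fold change 0.17, SE 0.06, unadjusted p = 0.029, adjusted p = 0.290), and the unadjusted p stayed under 0.05 in 5 of 8 fits that left out 1 library. The other 7 members overlapped between genotypes, with log2 fold changes from -0.16 for Slc25a36 to 0.13 for Slc25a33, a pair of pyrimidine nucleotide carriers at mean levels of 27.8 and 13.0 TPM. Slc25a51, the NAD+ carrier, averaged 33.4 TPM, and Slc25a26, the S-adenosylmethionine carrier, 15.8 TPM. Slc25a17, a peroxisomal carrier of coenzyme A and related cofactors, averaged 9.78 TPM, and Slc25a32, a folate and flavin carrier, 5.92 TPM.

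The iron carriers, or mitoferrins, deliver iron for heme and iron-sulfur cluster synthesis, Slc25a37 mainly in red cell precursors and Slc25a28 in most tissues. Slc25a37 (ENSMUSG00000034248, chr14:69241848-69285112, minus strand) measured 7.87, 7.71, 8.05 and 8.05 TPM in the libraries labelled Nup210-/- and 6.38, 7.57, 7.40 and 6.26 TPM in those labelled Nup210+/+. All 4 values of the first group lay above all 4 of the second, on deposited and on scaled TPM (log2 fold change 0.26, SE 0.07, unadjusted p = 0.0066, adjusted p = 0.189). Red cell markers stood at 879.7 to 2688 TPM in the libraries labelled Nup210-/- and at 1216 to 5305 TPM in those labelled Nup210+/+, and all 5 tested had a negative fold change, opposite in sign to Slc25a37, whose relation to them was not tested. Exons of Slc25a37 overlap those of Gm27223 and Gm31748 on the opposite strand, and 6.55% of its 75-base windows also occur in Gm16867. Slc25a28 averaged 14.1 TPM (log2 fold change 0.14, 95% interval -0.02 to 0.30, adjusted p = 0.395). Slc25a39 and Slc25a40, which bring glutathione into mitochondria, averaged 37.5 and 2.95 TPM and had log2 fold changes of 0.003 (95% interval -0.19 to 0.20) and 0.013 (-0.27 to 0.30).

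Carriers related to the uncoupling proteins were low. Slc25a27 (ENSMUSG00000023912, chr17:43641891-43667214, minus strand), best known from brain, measured 4.48, 3.66, 4.50 and 4.22 TPM in the libraries labelled Nup210-/- and 3.48, 2.78, 3.84 and 3.38 TPM in those labelled Nup210+/+. Scaled TPM ran from 3.71 to 4.74 and from 2.68 to 3.54 without overlap (log2 fold change 0.33, SE 0.11, unadjusted p = 0.012, adjusted p = 0.215). Slc25a30 measured 2.52, 2.57, 2.53 and 1.69 TPM against 3.51, 3.18, 5.71 and 2.03 TPM. The groups overlapped, with Nup210+/+ replicate 3 the highest (log2 fold change -0.35, 95% interval -0.79 to 0.09, adjusted p = 0.441, and -0.18 without that library). Slc25a14 averaged 2.21 TPM (log2 fold change -0.11, 95% interval -0.48 to 0.25).

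Slc25a46, which sits in the outer rather than the inner membrane and acts in mitochondrial shape, averaged 24.1 TPM and differed by 0.09 on the log2 scale (95% interval -0.09 to 0.28). Among members whose substrates are less settled, Slc25a34 (ENSMUSG00000040740, chr4:141618824-141623821, minus strand) measured 8.08, 11.68, 8.37 and 9.56 TPM in the libraries labelled Nup210-/- and 5.11, 2.47, 5.68 and 8.0 TPM in those labelled Nup210+/+. The deposited values did not overlap, but the scaled ranges of 8.34 to 11.8 and 2.38 to 8.38 did by a small margin, with Nup210+/+ replicate 4 the highest and replicate 2 the lowest of its group. Mean TPM was 9.42 ± 1.64 and 5.32 ± 2.27 (SD, n = 4 each), a ratio of 1.77 (log2 fold change 0.87, SE 0.27, unadjusted p = 0.010, adjusted p = 0.208, exact permutation p = 0.057 on scaled TPM). Without replicate 2 labelled Nup210+/+ the log2 fold change was 0.61. Slc25a47, best known from liver, averaged 3.91 TPM, Slc25a35 3.88 TPM, Slc25a45 1.72 TPM and Slc25a53 1.18 TPM, with log2 fold changes from -0.17 to 0.24 that none of their intervals separated from 0. Slc25a48 and Slc25a43 averaged 0.041 and 0.034 TPM.

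**Figure D4:**
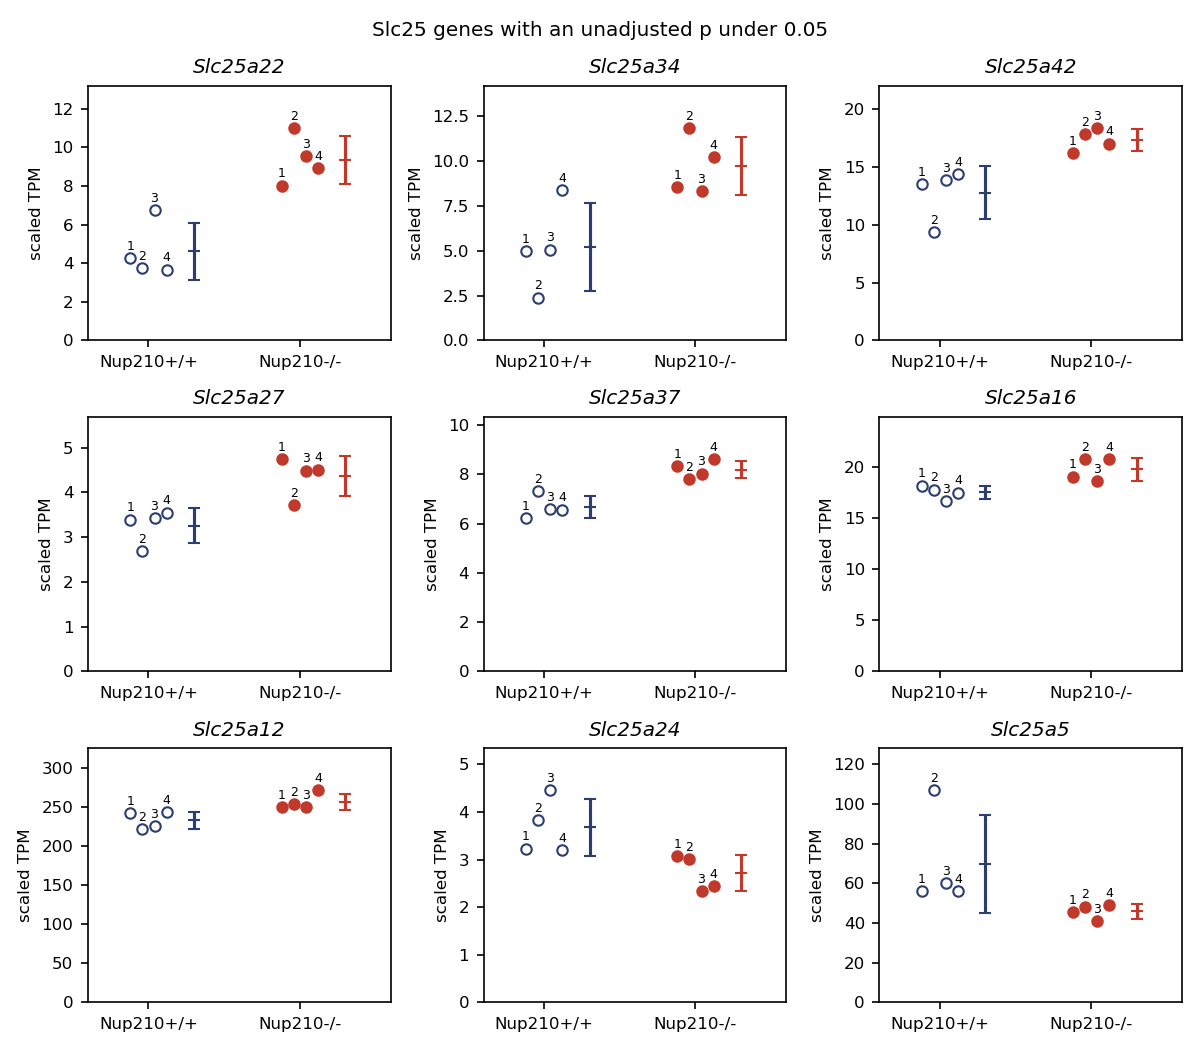
Scaled TPM, on axes from 0, of the 9 Slc25 genes with an unadjusted p under 0.05 in each library, numbered by replicate, with open blue points for Nup210+/+ and filled red points for Nup210-/-, and the mean ± SD (n = 4) beside each group. In 8 panels the groups do not overlap, and in that of Slc25a34 Nup210+/+ replicate 4, at 8.38, lies within the range of the other group.

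The sequences upstream of 4 members are shown so that their base composition can be compared, since Slc25a22, Slc25a34 and Slc25a42 had the highest fold changes and Slc25a5 was the lower of the ADP/ATP carriers. They are the bases before the RefSeq transcript start (GRCm38.p6), 5′ to 3′ on the strand of the gene, without bases that lie in annotated exons, and capitals mark CG dinucleotides. Slc25a22 is shown for chr7:141437893-141438112, upstream of its outermost annotated start, Slc25a34 for chr4:141623835-141624084, Slc25a42 for chr8:70212306-70212531 (these 3 on the minus strand) and Slc25a5 for chrX:36795347-36795596 (plus strand).
Slc25a22: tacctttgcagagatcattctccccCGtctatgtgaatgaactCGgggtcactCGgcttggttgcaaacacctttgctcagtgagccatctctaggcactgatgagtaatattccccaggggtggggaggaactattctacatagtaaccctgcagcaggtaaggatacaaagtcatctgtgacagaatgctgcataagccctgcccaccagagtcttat
Slc25a34: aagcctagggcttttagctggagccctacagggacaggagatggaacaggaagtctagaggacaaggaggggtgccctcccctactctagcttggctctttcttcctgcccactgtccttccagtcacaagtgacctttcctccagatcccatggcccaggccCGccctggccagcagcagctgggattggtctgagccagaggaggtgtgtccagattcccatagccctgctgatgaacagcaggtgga
Slc25a42: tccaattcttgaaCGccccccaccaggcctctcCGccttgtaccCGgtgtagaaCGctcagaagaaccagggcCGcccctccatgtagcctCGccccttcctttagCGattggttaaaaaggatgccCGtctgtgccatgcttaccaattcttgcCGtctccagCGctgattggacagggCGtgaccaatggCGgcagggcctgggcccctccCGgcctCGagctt
Slc25a5: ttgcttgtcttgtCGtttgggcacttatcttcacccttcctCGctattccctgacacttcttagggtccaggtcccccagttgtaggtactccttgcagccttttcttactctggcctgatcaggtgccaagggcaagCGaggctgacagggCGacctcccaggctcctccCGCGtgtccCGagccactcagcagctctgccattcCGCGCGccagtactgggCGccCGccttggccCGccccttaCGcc

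As shown, the Slc25a34 sequence (250 bases) holds 1 CG and that of Slc25a22 (220 bases) holds 3. Those of Slc25a42 (226 bases) and Slc25a5 (250 bases) hold 14 each. With exon bases kept, the 250 bases before the start hold 1, 4, 18 and 14 in the same order. A RefSeq window was found for 35 of the 46 members, 1 per gene. The measures below use these windows without removal of exon bases. Several of them, among them those of Slc25a3, Slc25a4 and Slc25a36, reach into the annotated gene, and that of Slc25a11 lies wholly within it. Over the 250 bases before the start, the observed over expected frequency of CG was 0.05 for Slc25a34, the lowest of the 35, and 0.26 for Slc25a22, the third lowest. It was 0.72 for Slc25a42 and 0.62 for Slc25a5, with a median of 0.60 for the members and of 0.37 for all 32851 windows of the table, several of which can belong to 1 gene. Motif letters were searched on both strands, and none of the motifs contains another. CACGTG, an E-box, was found in 6 of 35 member windows and 6.02% of all windows, and the 6 belonged to Slc25a1, Slc25a13, Slc25a14, Slc25a31, Slc25a33 and Slc25a36. The palindromic motif of NRF1 was found in 2 of 35 (Slc25a3 and Slc25a31) and 3.74% of all windows, and TGACGTCA, a cyclic AMP response element, in 1 of 35 (Slc25a36) and 1.55%. TCAAGGTCA, an estrogen-related receptor motif, was found in 0 of 35 and 0.387% of all windows, and the MEF2 motif in 0 of 35 and 2.92%. A match describes letters in this window and is not a binding site, and only Slc25a22, Slc25a34, Slc25a42 and Slc25a5 were chosen for display, after their values were seen.

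Other genes that work with the carriers were read from lists chosen with earlier results of these data known. Over all genes tested, 7.0% were higher and 7.18% lower at an unadjusted p of 0.05. Of 5 family members under other symbols, the uncoupling proteins Ucp1, Ucp2 and Ucp3 and the carrier-like Mtch1 and Mtch2, 0 were higher and 1 (Mtch1, log2 fold change -0.18, adjusted p = 0.317) was lower at an unadjusted p of 0.05. Ucp3, the uncoupling protein of skeletal muscle, spread widely in both groups, with 74.09, 40.07, 91.33 and 104.17 TPM in the libraries labelled Nup210-/- and 29.50, 30.82, 140.46 and 43.72 TPM in those labelled Nup210+/+ (log2 fold change 0.67, 95% interval -0.40 to 1.73). Ucp2, at the other end with a log2 fold change of -0.58, measured 13.87 to 16.56 TPM against 15.24 to 49.66 TPM. Of 12 measured genes that import carriers into the membrane, 1 was higher and 0 lower at that p. It was Timm22, the channel through which carriers enter the inner membrane, at 36.07, 28.10, 30.21 and 28.18 TPM against 28.56, 24.40, 24.86 and 22.27 TPM (log2 fold change 0.37, adjusted p = 0.186), and Timm8a1 was lowest at -0.41.

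Of 19 other inner membrane transporters, 2 were higher (7.0% of all genes) and 0 lower (7.18% of all genes) at an unadjusted p of 0.05. They ran from Micu2, a regulator of the calcium uniporter (log2 fold change 0.23, adjusted p = 0.212), down to Sfxn1, a serine transporter (-0.46, adjusted p = 0.437). The 3 outer membrane channels Vdac1, Vdac2 and Vdac3 lay between 0.08 and 0.12 on the log2 scale, with 0 past that p. Of 8 tested creatine and adenylate kinases, which use the exported ATP, 0 were higher and 2 lower, the lowest being Ckb at -0.40 (adjusted p = 0.197) and the highest Ckm at 0.16. Of 6 shuttle enzymes, 0 passed in either direction, and they ran from -0.04 for Gpd1 to 0.14 for Got2. Of 79 tested nuclear subunits of the respiratory chain and ATP synthase, 68 had a positive and 11 a negative fold change. Of all 14229 genes, 6927 were positive and 7302 negative. Of the 79 subunits, 0 were higher and 1 lower (Cox6a1, log2 fold change -0.43, adjusted p = 0.151) at that p, with a median of 0.057. That median lay beside 0.044 for the 38 carriers, and both turned negative, to -0.037 and -0.034, on TPM as deposited.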

How the data were processed

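Directional libraries of polyadenylated RNA were sequenced by the authors as single reads of 75 bases, which they trimmed with cutadapt 2.3, aligned to mm10 with STAR 2.7.0d and quantified with RSEM 1.3.1 using Ensembl annotations. Versions are from the submitters' processing notes. They deposited TPM with 2 decimals, summing to 1000000 per library, and compared estimated counts with DESeq2, which were not used here, so depth is unknown from the values used. The members, lists and naming rule were chosen with earlier results of these data known. Here, TPM were divided by median-of-ratios size factors (15225 genes above 0 in every library), a pseudocount of 1 was added, and the 14229 genes averaging 0.5 TPM or more were fitted with limma 3.58.1 (R 4.3.3, intensity trend, genotype only, Benjamini-Hochberg). The exact permutation test of a single gene was two-sided, with 70 labelings. The fit was tested on simulated data. Members are named with their mean TPM, except 1 that is counted but not reported here, and values per library are given for members past an unadjusted p of 0.05 or without overlap, the 6 highest, and the 3 highest and 3 lowest fold changes. Coordinates and windows of 75 bases are from GENCODE M21 (GRCm38), a newer release than the authors' annotation. The alternatives were another pseudocount, other filters and scalings, library weights, a replicate block and each library left out. No sample was left out.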

Additional observations from a re-analysis of the deposited data

Results flagged for a closer look

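In 4 of the 76 groups of 4 libraries, 1 library lay farther from the rest of its group than the Dixon limit allows, where chance gives about 3.8 (1 in 20 groups). Slc25a13 stood at 3.5 TPM in Nup210+/+ replicate 2 and between 0.73 and 0.95 TPM in replicates 1, 3 and 4. Slc25a16 stood at 16.65 TPM in Nup210+/+ replicate 4, against 18.39 to 18.66 TPM. Slc25a26 stood at 16.46 TPM in Nup210-/- replicate 1, against 15.61 to 15.73 TPM. Slc25a30 stood at 1.69 TPM in Nup210-/- replicate 4, against 2.52 to 2.57 TPM.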

How the results depend on the processing

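Under 16 alternatives, no Slc25 gene passed an adjusted p of 0.05 except with library weights, where 1 did (Slc25a22, adjusted p = 0.036) and 84 of 14229 genes were called. Leaving out 1 library in turn gave 0 members at an adjusted p, 6 to 14 at an unadjusted p of 0.05 (11.0 to 18.8% of all genes), 8 to 14 without overlap (12.2 to 18.3% of all genes), and a median log2 fold change of 0.032 to 0.081, where both counts of 14 came without Nup210+/+ replicate 4. On TPM as deposited, 4 members (8.41% of all genes) were without overlap and the median was -0.034. Of 38 members 26 kept the sign of their fold change under all 16 alternatives, and 12 changed it in at least 1, the largest of these being Slc25a13 at -0.28 (0.032 without Nup210+/+ replicate 2). Both genotypes use replicate numbers 1 to 4, but same-numbered libraries did not deviate together (correlations -0.033 to 0.086), so the numbers were not taken as pairs. With the replicate block, 0 members (0 of 14229 genes) passed an adjusted and 8 (13.0% of all genes) an unadjusted p of 0.05, and the median stayed at 0.044. Depth is unknown, so no limit for a gene listed at 0 is given. Every alternative planned was run.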
